A study of Homo sapiens with 18 samples.

Results

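The comparison set stearate against oleate in OVCAR5 cells whose stearoyl-CoA desaturase was inhibited. It took the 3 stearate+CAY10566 samples and the 3 oleate+CAY10566 samples, 6 of the 18 RNA-sequencing samples of the series, picked by their labels alone and not by any measured value. OVCAR5, an established line of human ovarian cancer cells, is labelled a high grade serous adenocarcinoma of wild-type genotype. The stearate+CAY10566 samples had received 50 µM stearate with 1 µM CAY10566, and the oleate+CAY10566 samples 50 µM oleate with 1 µM CAY10566. All had been kept for 24 h in medium that contained albumin freed of fatty acids. CAY10566 is an inhibitor of SCD1. Beside them stood 3 samples with CAY10566 and no added fatty acid, and, for the same pair of fatty acids without the inhibitor, 3 stearate+DMSO and 3 oleate+DMSO samples, DMSO being the vehicle. All 18 samples came from 1 cell line. The methods give the treatments for sequencing as run in triplicate, and independent experiments for the in vitro work in general, without saying whether the replicates sequenced were parallel wells or separate experiments; p-values measure the spread between these samples, which may be technical.

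Stearate and oleate are long-chain fatty acids of equal length, and oleate carries a cis double bond that stearate lacks. SCD, the gene of SCD1, encodes the enzyme that puts this double bond into the CoA ester of stearate, so the comparison placed the substrate of the enzyme against its product. In mammalian cells the SREBP transcription factors switch on SCD and the genes of cholesterol and fatty acid synthesis, and unsaturated fatty acids are known to lower SCD expression. Saturated fatty acids are known to set off the unfolded protein response (UPR) of the endoplasmic reticulum (ER) in many cell types. YAP and TAZ are transcriptional coactivators that act through TEAD factors on genes of growth, adhesion and the cytoskeleton.

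Expression was given as TPM, in which the estimated reads of a gene are divided by its length and scaled to a fixed sum per sample, so that levels can be set side by side between genes. That fixed sum hides how many reads lie behind a value, and the depth is unknown, so precision comes only from the spread between replicates. Genes with a mean of at least 1 TPM over the 6 samples, 13798 in all, were compared as log2(TPM + 1), and the pseudocount shrinks the difference of weakly expressed genes. A gene was called when its Benjamini-Hochberg adjusted p in limma was under 0.05 and its log2 difference over 0.32 in size, the fold limit. Across genes, log2 values correlated at 0.982 to 0.985 between replicates of a group and at 0.978 to 0.984 between samples of the different groups. Mitochondrial genes held 5.26% to 7.20% of TPM. Of 14 epithelial and ovarian carcinoma markers, 12 reached a mean of 1 TPM, among them 326 TPM of EPCAM, 879 TPM of KRT8 and 10.96 TPM of PAX8, whereas WT1 at 0.195 TPM and MUC16 at 0.652 TPM, both markers of serous carcinoma, did not. Their summed level was 2709 to 2811 TPM with stearate and 2918 to 3263 TPM with oleate. Of 17 markers of immune, endothelial, stromal, blood, liver and fat cells, 3 reached 1 TPM, and PTPRC, CD3E, HBB and ADIPOQ were at or near 0. The sum of these 17 was 94.5 to 99.8 TPM with stearate and 109 to 120 TPM with oleate, nearly all of it CD68. In bulk RNA, fewer cells with a transcript and less of it per cell cannot be told apart.

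With the desaturase inhibited, the cells given stearate differed from those given oleate mainly by lower transcripts. Among the 13798 genes, 333 were called lower with stearate (2.41%) and 74 higher (0.536%), so that 18.2% of the calls were higher. After rescaling of TPM by median-of-ratios size factors the counts were 240 lower and 106 higher (30.6% higher), and after taking out, sample by sample, the dependence on length and GC content, 266 and 128 (32.5% higher). The median log2 difference of all tested genes was -0.04. Most differences were small: the median fold was 1.39 for the genes called lower and 1.35 for those called higher, 109 and 13 passed 1.5-fold, and 21 and 3 passed 2-fold. By the adjusted p alone, 458 genes were lower (3.32%) and 125 higher (0.906%). Protein-coding genes made up 310 of the 333 and 65 of the 74, and long non-coding RNA genes 13 and 6. The counts were lower with any 1 library left out, and such a fit also has 1 sample fewer to test. Leaving out any 1 of the 6 libraries gave 22 to 47 genes called higher, the lowest without stearate+CAY10566 replicate 2 and the highest without oleate+CAY10566 replicate 3, and 113 to 291 called lower, the lowest without oleate+CAY10566 replicate 2 and the highest without stearate+CAY10566 replicate 3.

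In a principal component analysis of the 6 samples, 29.2% of the variance fell on the first component, and of the variance along it 87.5% lay between the groups (exact permutation test over 20 splits, two-sided, p = 0.1, the smallest that 3 against 3 samples allow). The stearate samples had scores of 19.97, 18.9 and 6.23, and the oleate samples of -21.8, -13.7 and -9.63. The groups did not overlap on this component, and stearate+CAY10566 replicate 3 lay nearest to the oleate samples. The second component held 21.0% of the variance, of which 1.33% lay between the groups (exact permutation test, p = 0.9).

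**Figure D1:**
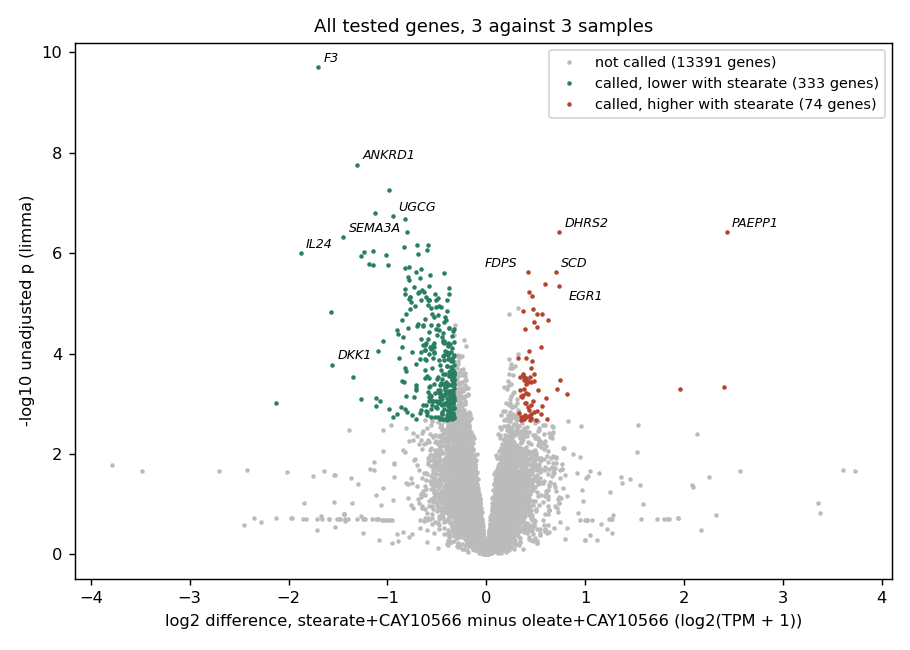
Log2 difference of each of the 13798 tested genes between stearate+CAY10566 and oleate+CAY10566 (x axis, log2(TPM + 1) scale) against the −log10 of its unadjusted limma p (y axis). The 333 genes called lower with stearate (green) outnumber the 74 called higher (red), and F3 has the smallest p.

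The genes that fell furthest with stearate, always relative to oleate, are given first. Among the 307 genes called lower with a mean of at least 5 TPM and no overlap between the groups (17.9% of all tested genes were without overlap and lower, and 8.94% without overlap and higher), the 12 largest were IL24, F3, DKK1, SEMA3A, ANKRD1, TNFSF18, PADI1, IL7R, INHBA, SPNS2, ALDH1A3 and MB, with log2 differences from -1.88 to -1.05. F3 (chromosome 1, 94529173 to 94541759, minus strand; GRCh38) encodes tissue factor, the cell surface receptor that starts coagulation. It measured 133, 129 and 136 TPM in the 3 stearate+CAY10566 samples and 426, 457 and 421 TPM in the 3 oleate+CAY10566 samples. Every stearate sample lay far below every oleate sample, and the log2 difference was -1.70 (SE 0.05, adjusted p = 2.69e-06). IL24, which encodes a cytokine of the interleukin 10 family, measured 2.75, 2.11 and 1.69 TPM with stearate and 10.5, 9.64 and 11.7 TPM with oleate, a log2 difference of -1.88 (SE 0.15, adjusted p = 0.000772). ANKRD1, which encodes an ankyrin repeat protein known as a target of YAP, measured 38.6, 37.7 and 36.97 TPM with stearate and 93.8, 102 and 88.9 TPM with oleate (-1.30, SE 0.06, adjusted p = 0.00012). Both groups of ANKRD1 values were tight and lay wide apart.

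SEMA3A, a secreted guidance cue, stood at 3.53, 3.75 and 3.36 TPM with stearate and 10.99, 10.6 and 12.6 TPM with oleate. INHBA, the subunit of activin A, stood at 35.4, 42.6 and 43.8 TPM against 96.4, 92.2 and 84.6 TPM. IL7R, the receptor of interleukin 7, stood at 4.59, 5.07 and 4.38 TPM against 12.3, 12.5 and 10.9 TPM. TNFSF18, a ligand of the TNF family, had a log2 difference of -1.27 and SPNS2, a transporter that exports sphingosine-1-phosphate, one of -1.15. The enzymes PADI1, which converts peptidyl arginine to citrulline, and ALDH1A3, which makes retinoic acid, differed by -1.23 and -1.13. Separation of the groups was part of the rule that chose these genes. DKK1, an inhibitor of Wnt signalling, was the most variable of the 12, with 1.17, 3.41 and 2.15 TPM with stearate and 7.90, 7.31 and 9.36 TPM with oleate. Its log2 difference was -1.56 (SE 0.24, adjusted p = 0.0124), and the call was lost without any 1 of the oleate+CAY10566 samples (adjusted p up to 0.0662). That of MB, myoglobin, was lost without oleate+CAY10566 replicate 2 (adjusted p = 0.0560); the other 10 were called without any 1 of the 6 libraries.

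**Figure D2:**
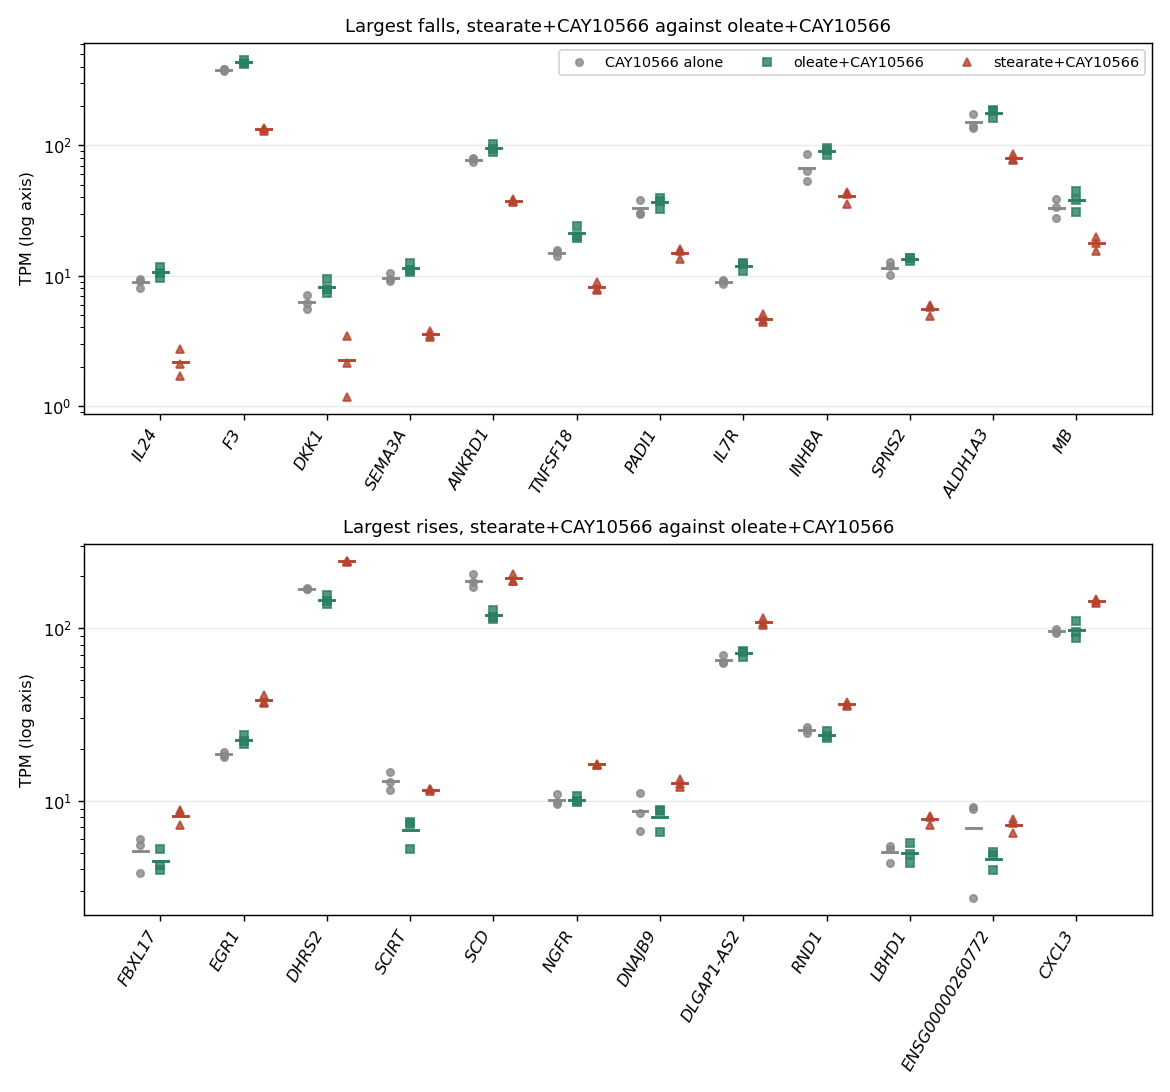
TPM (log axis) of the 12 genes with the largest falls (top) and the 12 with the largest rises (bottom) in stearate+CAY10566 against oleate+CAY10566. Each point is 1 sample of CAY10566 alone (grey circles), oleate+CAY10566 (green squares) or stearate+CAY10566 (red triangles), and bars are means of 3; the red triangles lie apart from the green squares for every gene, which the rule that chose the genes required.

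Of the genes listed as targets of YAP and TEAD, 11 fell with stearate. Of 26 tested members of this list, which holds YAP1, WWTR1 (TAZ) and the TEAD genes as well, 11 were called lower and 0 higher, where 2.41% and 0.536% of all genes were called; the list was chosen with earlier results of these data known and is not independent evidence of the direction. The median log2 difference of the 26 was -0.31, against -0.04 for all tested genes, and all 26 estimates were below 0; after rescaling by size factors 25 were, and after removal of the length and GC trend 24. Beside F3 and ANKRD1, the called genes were TGFB2 (-0.89), a ligand of the TGF-beta family, CRIM1 (-0.79), MYOF (-0.56), DLC1 (-0.55), AMOTL2 (-0.50), AXL (-0.48), CCN1 (-0.39), GADD45B (-0.39) and NUAK2 (-0.38). AXL, a receptor tyrosine kinase, measured 177, 189.96 and 199.6 TPM with stearate and 257, 270.01 and 264 TPM with oleate. CCN1, a matricellular protein, measured 363, 383 and 366 TPM against 479, 506 and 477 TPM, and AMOTL2, which binds YAP, 47.8, 48.9 and 51.7 TPM against 71.9, 70.3 and 69.4 TPM. The 3 genes showed no overlap between the groups. Without overlap and lower were 15 of the 26 members and 17.9% of all tested genes. CCN2, another matricellular target of YAP, was not called (-0.07, 95% CI -0.19 to 0.04), and neither were YAP1 (-0.06, 95% CI -0.18 to 0.06) and WWTR1 (-0.11, 95% CI -0.28 to 0.05). Leaving out 1 library gave 7 to 11 called members. The count was 7 without oleate+CAY10566 replicate 1 or 2. The 7 genes F3, ANKRD1, TGFB2, CRIM1, AMOTL2, AXL and CCN1 were called without any 1 of the 6.

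The promoters of 8 of these 11 genes were found in the RefSeq table of GRCh38.p14, as 250 bases before to 50 after the start. The hexamer GGAATG, the core that TEAD factors bind, was searched on both strands and stood in the promoters of 3 of the 8 (37.5%) and of 8 of the 22 list members with a promoter (36.4%), against 14% of 35116 promoters. The 3 are shown since they belong to the group that fell, with the hexamer or its complement in capitals, from ANKRD1 (chr10:90921038-90921337, minus strand), TGFB2 (chr1:218345086-218345385, plus strand) and NUAK2 (chr1:205321696-205321995, minus strand).
ANKRD1: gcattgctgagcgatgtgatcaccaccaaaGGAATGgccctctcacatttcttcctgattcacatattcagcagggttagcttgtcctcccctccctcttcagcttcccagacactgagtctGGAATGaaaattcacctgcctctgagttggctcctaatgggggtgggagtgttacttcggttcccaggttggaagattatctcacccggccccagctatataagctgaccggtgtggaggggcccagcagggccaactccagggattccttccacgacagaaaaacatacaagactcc
TGFB2: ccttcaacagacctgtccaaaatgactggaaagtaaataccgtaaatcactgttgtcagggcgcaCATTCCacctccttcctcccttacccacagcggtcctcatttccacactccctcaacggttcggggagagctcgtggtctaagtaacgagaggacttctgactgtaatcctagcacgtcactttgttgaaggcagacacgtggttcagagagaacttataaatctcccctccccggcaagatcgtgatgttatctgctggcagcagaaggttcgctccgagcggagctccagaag
NUAK2: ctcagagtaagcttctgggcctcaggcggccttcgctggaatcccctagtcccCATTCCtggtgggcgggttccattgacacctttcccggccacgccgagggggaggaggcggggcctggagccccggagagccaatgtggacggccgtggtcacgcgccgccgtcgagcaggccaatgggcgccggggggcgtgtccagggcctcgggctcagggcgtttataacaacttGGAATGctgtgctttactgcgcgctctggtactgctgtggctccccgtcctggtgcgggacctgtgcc
ANKRD1 and NUAK2 each held 2 matches and TGFB2 held 1. F3 and AXL had none in this window. A match describes letters and not a bound site.

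Genes of coagulation and of the EGF family were also among those that fell. Of 15 tested genes of plasminogen activation and coagulation, 5 were called lower and 0 higher (2.41% and 0.536% of all genes), with a median log2 difference of -0.24 against -0.04 for all genes; these were F3, PLAT, F2R, THBD and F2RL1. PLAT, tissue plasminogen activator, measured 41.5, 38.2 and 41.3 TPM with stearate and 63.5, 72.6 and 73.4 TPM with oleate (-0.78, SE 0.07, adjusted p = 0.00138). THBD, thrombomodulin, had a log2 difference of -0.46, and the thrombin receptor F2R and the related receptor F2RL1 of -0.46 and -0.42; the call of F2R did not hold when any library but oleate+CAY10566 replicate 3 was left out. PLAU, the urokinase gene, passed the adjusted p (0.0164) with a log2 difference of -0.25 but not the fold limit. With 1 library left out the list held 4 to 6 calls. Of 12 tested ligands, receptors and regulators of the EGF family, 3 were called lower and 0 higher (median -0.28, against the same background), and 1 to 4 lower with 1 library left out. EGFR, the receptor, measured 54.1, 60.1 and 65.3 TPM with stearate and 93.8, 93.8 and 84.5 TPM with oleate (-0.59, SE 0.08, adjusted p = 0.00613, and 0.0530 without oleate+CAY10566 replicate 2). ERRFI1, a feedback inhibitor of this receptor, measured 922, 942 and 946 TPM against 1295, 1288 and 1156 TPM, with the groups well apart (-0.41, adjusted p = 0.00350). TGFA, a ligand, had a log2 difference of -0.34 (adjusted p = 0.0310), and its call was lost on leaving out any library but 1. The ligands HBEGF (-0.22), AREG (-0.23) and EREG (-0.30) passed the adjusted p but not the fold limit.

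Calls among cytokine genes were few and lay in both directions. Of 26 tested cytokines and targets of NF-kB, 4 were called lower and 2 higher, where 2.41% and 0.536% of all genes were, and the median log2 difference was -0.01; 20 were not called. IL6 measured 63.3, 67.2 and 69.4 TPM with stearate and 126, 115 and 103 TPM with oleate (-0.77, adjusted p = 0.00200), and IL1B 121, 113 and 115 TPM against 171, 194 and 195 TPM (-0.67, adjusted p = 0.00130). Both interleukins were thus lower with stearate in every sample, beside IL24. TNFAIP3, an inhibitor of NF-kB, had a log2 difference of -0.47, and its call held only where stearate+CAY10566 replicate 3 was the library left out. Higher with stearate were CXCL3, a chemokine, at 144, 140.2 and 147 TPM against 88.02, 109.7 and 95.5 TPM (0.56, adjusted p = 0.00766), and ICAM1, an adhesion molecule for leukocytes, at 374, 368 and 375 TPM against 256, 301 and 289 TPM (0.40, adjusted p = 0.0102; 0.0543 at most, without stearate+CAY10566 replicate 1 or 2). A list of EGR, AP-1 and ERK feedback genes, to be read against the same shares of all genes, had 34 tested members. Of these, EGR1 and FOS were called higher and IL24, HMGA2, MYC and KLF6 lower, with IL24 counted in both lists. EGR1, IL24 and MYC were called whichever library was left out, and FOS in no such fit. MYC, a transcription factor of growth, measured 275, 288 and 281 TPM with stearate and 363, 369 and 365 TPM with oleate (-0.38, SE 0.04, adjusted p = 0.00173).

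**Figure D3:**
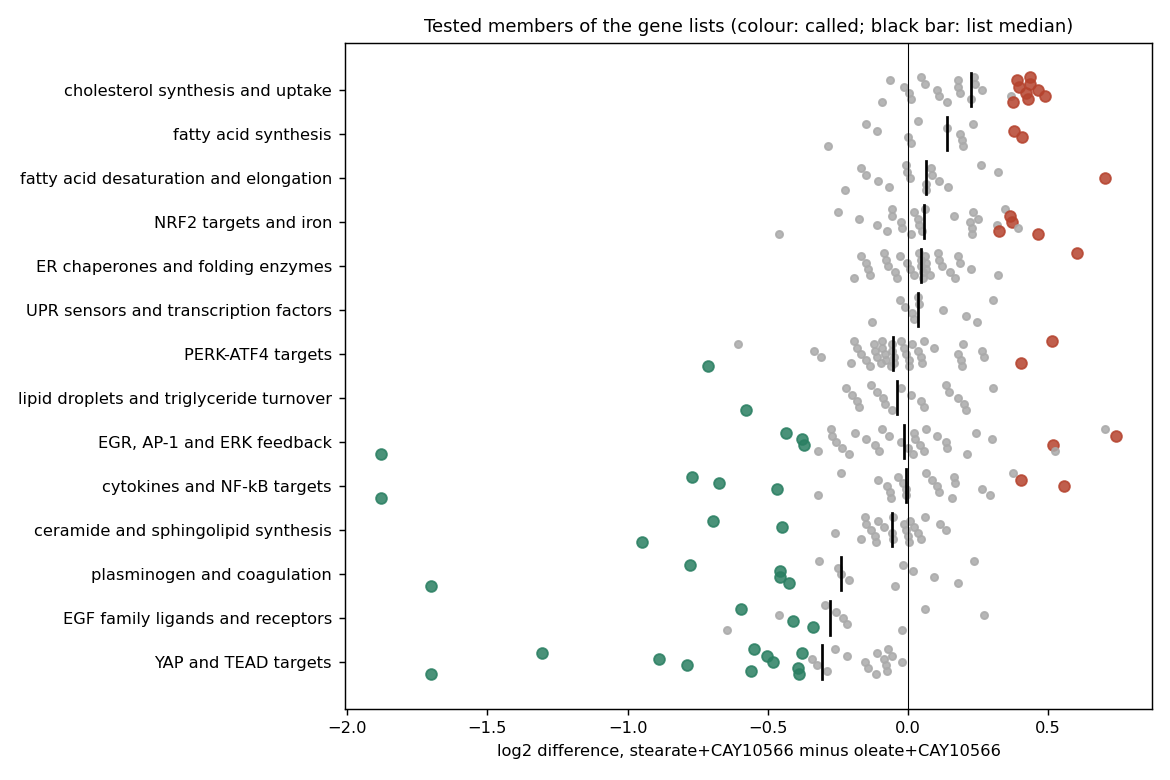
Log2 difference between stearate+CAY10566 and oleate+CAY10566 for each tested member of 14 gene lists, 1 point per gene. Coloured points are called genes (red higher, green lower with stearate), black bars are list medians; all 26 points of the YAP and TEAD list lie below 0, and the called genes of cholesterol synthesis all lie above it.

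Among genes of ceramide handling, a few were lower with stearate than with oleate. Of 26 tested genes of ceramide and sphingolipid synthesis, 3 were called lower and 0 higher, where 2.41% and 0.536% of all genes were, and the list median was -0.06 against -0.04. UGCG, glucosylceramide synthase, measured 45.5, 44.6 and 43.95 TPM with stearate and 92.7, 87.6 and 81.3 TPM with oleate, with no overlap (-0.95, SE 0.06, adjusted p = 0.000476). B4GALT5, which adds galactose to glucosylceramide, measured 43.5, 43.8 and 46.1 TPM against 74.2, 74.4 and 69.2 TPM (-0.69, adjusted p = 0.000772). CERT1, the carrier of ceramide from the ER to the Golgi, had a log2 difference of -0.45 (adjusted p = 0.0182), a call lost without stearate+CAY10566 replicate 1 or 2 or oleate+CAY10566 replicate 1 or 2. MGLL, a lipase of monoacylglycerols, was the 1 gene called among 20 of lipid droplets and triglyceride turnover (-0.58, adjusted p = 0.00200). Among 28 tested PPAR targets and genes of fatty acid oxidation and 28 of phospholipid synthesis and remodelling, 0 were called in limma. With all 18 samples in the fit 2 of the first list were called higher and 1 of the second lower, with a minimum of 5 TPM 1 and 1, and with the length and GC dependence taken out 2 and 0. ANGPTL4, a PPAR target, had 14.6, 14.6 and 15.7 TPM with stearate and 9.80, 11.8 and 12.2 TPM with oleate (0.38, 95% CI 0.16 to 0.60, adjusted p = 0.0704).

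SCD, the gene of the inhibited enzyme, was higher with stearate than with oleate. SCD (chromosome 10, 100347233 to 100364826, plus strand) measured 189, 188 and 206 TPM in the stearate+CAY10566 samples and 114, 128 and 116 TPM in the oleate+CAY10566 samples. The groups did not overlap, the means were 195 ± 10.2 and 119 ± 7.94 TPM (SD, n = 3 each), and the log2 difference was 0.70 (SE 0.06, adjusted p = 0.00114), between 0.66 and 0.76 over all alternatives. It was the 1 gene called among 17 tested for desaturation and elongation, where 0.536% of all genes were called higher and 2.41% lower. With a pseudocount of 0.1, after size factor rescaling or with the length and GC dependence taken out, 2 of the list were called higher. In the main fit the desaturase genes FADS1 (0.26, 95% CI 0.06 to 0.46), FADS2 (0.09, 95% CI -0.19 to 0.36) and SCD5 (0.08, 95% CI -0.24 to 0.40) were not called.

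Besides SCD, 9 genes of cholesterol synthesis and uptake were called higher with stearate relative to oleate. Of 27 tested genes of cholesterol synthesis and uptake, 9 were called higher and 0 lower, where 0.536% and 2.41% of all genes were. The count called higher was 3 without a mean-variance trend and 4 with no TPM filter or with a replicate block. It was 10 after size factor rescaling and 11 with the length and GC dependence taken out. In the main fit 24 estimates were above 0, as were 25 after rescaling or removal of the length and GC trend. The median log2 difference was 0.22 against -0.04 for all tested genes. INSIG1, which holds the SREBP escort protein in the ER and is itself a target of SREBP, measured 60.5, 60 and 65.7 TPM with stearate and 43.6, 45.3 and 42.9 TPM with oleate, with no overlap (0.49, SE 0.06, adjusted p = 0.00364). FDPS, farnesyl diphosphate synthase, measured 225, 223 and 229 TPM against 169.8, 168 and 167 TPM, with tight and separate groups (0.42, SE 0.04, adjusted p = 0.00114). DHCR7, which catalyses the last step of cholesterol synthesis, measured 88.3, 90.9 and 96.97 TPM against 63.2, 70.1 and 70.2 TPM (0.44, SE 0.06, adjusted p = 0.00857). These 3 were called without any 1 of the 6 libraries. The other 6 were TM7SF2 (0.46), MVK (0.44), STARD4 (0.43), HSD17B7 (0.40), MSMO1 (0.39) and IDI1 (0.37), which act in the pathway apart from STARD4, a sterol carrier; 4 of them were called in no fit with 1 library left out, and the list then held 3 to 6 calls. The SREBP genes themselves, SREBF1 (0.19, 95% CI -0.07 to 0.44) and SREBF2 (0.06, 95% CI -0.11 to 0.23), were not called. Of 13 tested genes of fatty acid synthesis, ACSL3, a ligase that makes fatty acyl-CoA, and ME1, malic enzyme, were called higher (0.38 and 0.41), and neither held in every fit with 1 library left out. FASN, fatty acid synthase, was not called (0.19, 95% CI -0.04 to 0.42).

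The CCAAT box, bound by NF-Y, a partner of SREBP, was searched as CCAAT on both strands of the same promoters. It stood in 8 of the 9 called cholesterol genes (88.9%) and in 17 of the 22 list members with a promoter (77.3%), against 34.6% of 35116 promoters. A form of the sterol regulatory element, TCACNCCAC, stood in 0 of the 9, in 1 of the 22 (4.55%) and in 1.13% of all. The promoters of SCD (chr10:100346983-100347282, plus strand), INSIG1 (chr7:155297628-155297927, plus strand) and FDPS (chr1:155308616-155308915, plus strand) are shown as those of the genes with the firmest rise, with CCAAT or its complement in capitals.
SCD: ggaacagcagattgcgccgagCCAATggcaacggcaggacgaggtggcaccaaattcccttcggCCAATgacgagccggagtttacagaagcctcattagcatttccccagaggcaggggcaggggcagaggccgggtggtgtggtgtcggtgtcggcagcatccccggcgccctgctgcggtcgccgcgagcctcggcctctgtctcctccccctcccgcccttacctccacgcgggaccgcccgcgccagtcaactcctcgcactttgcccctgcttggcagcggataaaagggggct
INSIG1: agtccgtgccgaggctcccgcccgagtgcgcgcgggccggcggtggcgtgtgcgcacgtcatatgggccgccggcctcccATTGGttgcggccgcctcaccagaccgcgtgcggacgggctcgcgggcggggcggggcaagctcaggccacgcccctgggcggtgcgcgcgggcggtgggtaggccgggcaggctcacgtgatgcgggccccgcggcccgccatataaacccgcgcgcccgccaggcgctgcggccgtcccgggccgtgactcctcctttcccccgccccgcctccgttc
FDPS: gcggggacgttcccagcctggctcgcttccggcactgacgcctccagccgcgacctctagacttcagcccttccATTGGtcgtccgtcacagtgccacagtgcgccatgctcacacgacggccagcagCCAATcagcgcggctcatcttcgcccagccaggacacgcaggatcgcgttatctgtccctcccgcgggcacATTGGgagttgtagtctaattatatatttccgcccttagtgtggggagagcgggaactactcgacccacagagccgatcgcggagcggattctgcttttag
SCD held 2 matches, INSIG1 held 1 and FDPS held 3. Among the called cholesterol genes, IDI1 had none in this window.

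The level in cells with the inhibitor and no added fatty acid showed on which side each group lay. Both comparisons below share the 3 CAY10566 samples, of which replicate 3 stood apart from the others for some genes (INHBA at 53.6, 63.1 and 85.6 TPM), so values are also given without it. Against CAY10566 alone, in limma over the 9 samples, stearate gave 57 genes called higher (0.413%) and 126 lower (0.913%). Oleate gave 0 higher (0%) and 2 lower (0.0145%), with 1290 genes at an unadjusted p under 0.05. Without CAY10566 replicate 3 the counts were 68 and 87 for stearate and 5 and 2 for oleate. Genes at an unadjusted limma p under 0.05 then numbered 2585 for stearate and 2956 for oleate, against 2190 and 1290 with all samples. Without CAY10566 replicate 2 they numbered 1747 and 734. The 2 genes lower with oleate were SCD and INSIG1. They were called without CAY10566 replicate 2 or 3, and with any other library left out of this fit neither was.

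For SCD, the CAY10566 samples measured 185, 174 and 207 TPM, on both sides of the stearate values and above all oleate samples. Its log2 difference from CAY10566 alone was 0.04 with stearate (SE 0.07, adjusted p = 0.826) and -0.66 with oleate (SE 0.07, adjusted p = 0.0246). INSIG1 measured 66.5, 61.98 and 71.6 TPM with CAY10566 alone, and its differences were -0.10 (adjusted p = 0.502) with stearate and -0.59 (adjusted p = 0.0246) with oleate. Over the 9 called cholesterol genes, the median difference from CAY10566 alone was 0.03 with stearate and -0.39 with oleate, and 0.05 and -0.36 without CAY10566 replicate 3. The genes lower with stearate than with oleate were not alike in this respect. F3 measured 384, 375 and 388 TPM with CAY10566 alone, near the oleate samples, and differed by -1.52 with stearate (adjusted p = 9.27e-08) and by 0.18 with oleate (adjusted p = 0.353). Over the 11 called YAP and TEAD genes, the median was -0.36 with stearate, where 4 were called lower, and 0.24 with oleate, where 0 were called; without CAY10566 replicate 3 the medians were -0.32 and 0.28. Single members differed: without that replicate CCN1 stood at -0.38 with stearate and 0.02 with oleate, AXL at -0.24 and 0.24, and DLC1 at -0.04 and 0.51. Of the 3 called ceramide genes, UGCG differed by -0.67 with stearate (adjusted p = 0.00102) and 0.28 with oleate (adjusted p = 0.353), and B4GALT5 by -0.21 (adjusted p = 0.186) and 0.48 (adjusted p = 0.0918). Without CAY10566 replicate 3, B4GALT5 was called higher with oleate (0.56, adjusted p = 0.0263), and the medians of the 3 were -0.14 with stearate and 0.42 with oleate, against -0.21 and 0.28 with all samples. EGR1 measured 18.04, 18.5 and 19.2 TPM with CAY10566 alone and differed by 1.01 with stearate (adjusted p = 0.000142) and by 0.27 with oleate (adjusted p = 0.358). Over all 333 genes called lower in stearate against oleate, the medians were -0.33 with stearate and 0.16 with oleate, and over the 74 called higher 0.30 and -0.14; without CAY10566 replicate 3 these were -0.29 and 0.22, and 0.33 and -0.13. The stearate and oleate samples that chose these genes enter the medians, which are therefore a description.

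**Figure D4:**
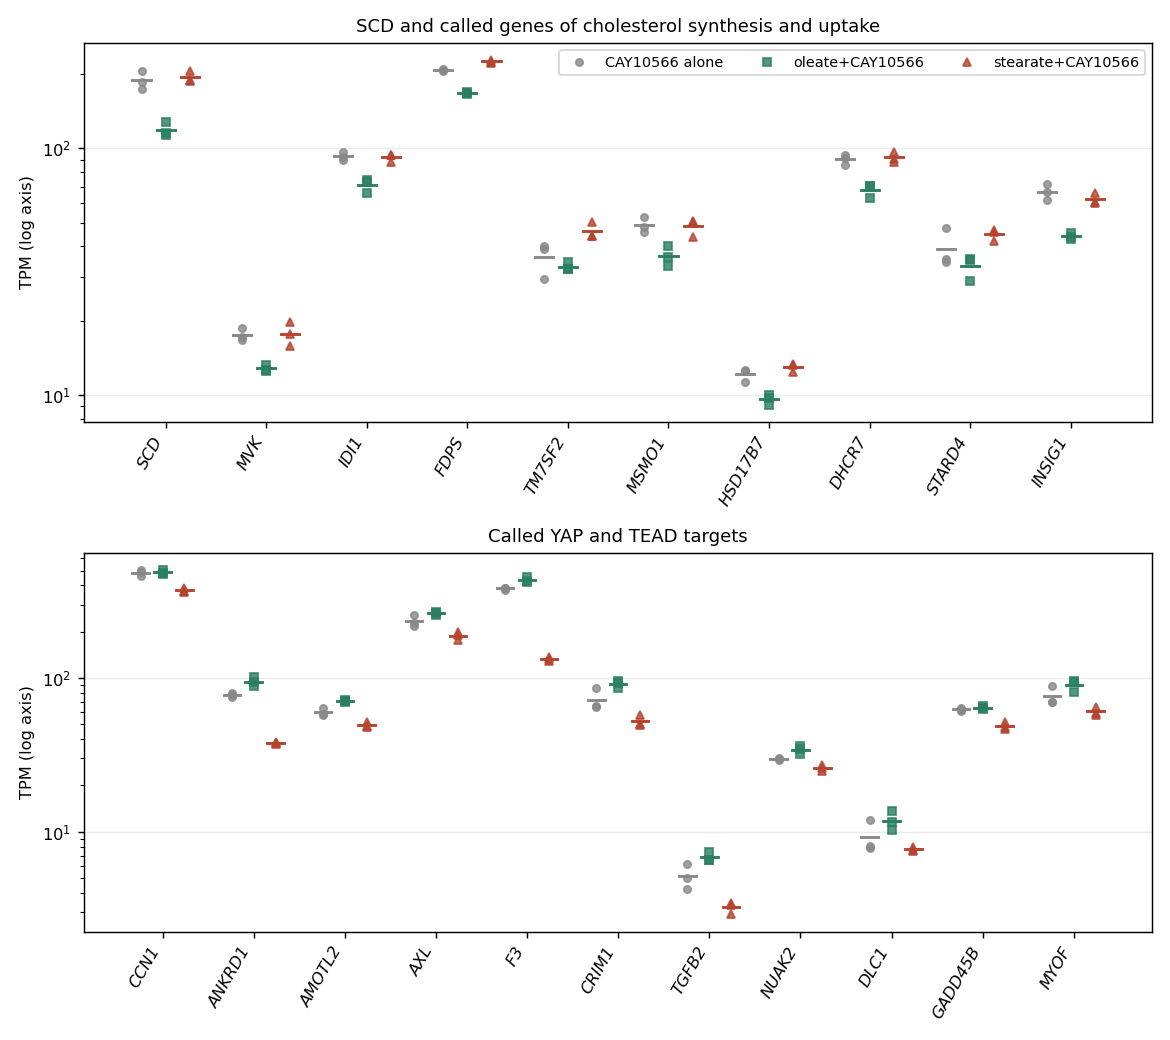
TPM (log axis) of SCD and the 9 called genes of cholesterol synthesis and uptake (top) and of the 11 called YAP and TEAD genes (bottom), 1 point per sample with bars at the means of 3. CAY10566 alone (grey circles) lies at the level of stearate+CAY10566 (red triangles) for SCD, INSIG1, IDI1 and DHCR7, and near oleate+CAY10566 (green squares) for F3, CCN1 and GADD45B.

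Of the 69 genes called higher with a mean of at least 5 TPM and no overlap, the 12 largest rises were FBXL17, EGR1, DHRS2, SCIRT, SCD, NGFR, DNAJB9, DLGAP1-AS2, RND1, LBHD1, ENSG00000260772 and CXCL3, with log2 differences from 0.56 to 0.75. EGR1, an immediate early transcription factor, measured 37.4, 36.8 and 40.8 TPM with stearate and 21.4, 23.9 and 22.3 TPM with oleate (0.74, SE 0.07, adjusted p = 0.00167). DHRS2, a mitochondrial dehydrogenase, measured 245, 243 and 246 TPM against 156, 144 and 138 TPM (0.74, SE 0.05, adjusted p = 0.000585). In both genes the stearate samples lay close together and above every oleate sample. NGFR, the low-affinity receptor of nerve growth factor, stood at 16.4, 16.2 and 16.1 TPM against 9.89, 10.7 and 9.95 TPM, and RND1, a small GTPase, at 35.7, 37.5 and 35.4 TPM against 23.7, 25.5 and 23.1 TPM. The long non-coding RNA DLGAP1-AS2 had a log2 difference of 0.59 (adjusted p = 0.00164). Of the 12, 7 were called without any 1 of the 6 libraries. FBXL17, with the largest difference, stood at 8.63, 7.21 and 8.79 TPM against 4.23, 5.27 and 3.99 TPM and lost its call in 4 of the 6 fits, and LBHD1 and ENSG00000260772 lost theirs in all 6, as DNAJB9 did in 5 and SCIRT in 4.

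Some targets of NRF2, the main transcription factor of the antioxidant response, rose. Of 28 tested targets of NRF2 and genes of iron handling, 4 were called higher and 0 lower, where 0.536% and 2.41% of all genes were. By the adjusted p alone 8 were higher, as were 0.906% of all genes. The list median was 0.06, with 19 estimates above 0 and 9 below, the lowest at -0.46. With a minimum of 5 TPM, all 18 samples or the length and GC dependence taken out, 1 member was called lower. Without stearate+CAY10566 replicate 3, 2 were called lower and 3 higher. HMOX1, heme oxygenase, measured 66.99, 65.4 and 66.3 TPM with stearate and 47.9, 47.8 and 47.8 TPM with oleate (0.46, SE 0.05, adjusted p = 0.00197). SRXN1, sulfiredoxin, measured 239, 251 and 245 TPM against 193, 192 and 183 TPM (0.37, SE 0.04, adjusted p = 0.00276). Both were called without any 1 of the 6 libraries, with groups that did not overlap; OSGIN1 (0.36) lost its call in all 6 of these fits. FTL, ferritin light chain, had a log2 difference of 0.32 (adjusted p = 0.00252), just under the fold limit. Of 28 cytosolic heat shock genes (median 0.02, 15 above 0 and 13 below), 2 were called higher, where 0.536% of all genes were, HSPA1A (0.39) and HSPA1B (0.48), near-identical copies between which reads may be split, and in 5 of 6 leave-one-out fits each call was lost.

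No sensor of the UPR was called on TPM as deposited. Of 11 tested sensors and transcription factors of the UPR, 0 were called in limma, where 0.536% of all genes were called higher and 2.41% lower. By the adjusted p alone 2 were higher, as were 0.906% of all genes, and their median log2 difference was 0.04. DDIT3, which encodes CHOP (chromosome 12, 57516588 to 57521737, minus strand), measured 153, 156 and 154 TPM with stearate and 129.5, 131 and 130.03 TPM with oleate. Every stearate sample lay above every oleate sample, and the log2 difference of 0.24 (SE 0.04, adjusted p = 0.0138) was below the fold limit; in leave-one-out fits the adjusted p was under 0.05 in 3 of 6. ATF4, the transcription factor downstream of PERK, measured 599, 604 and 594 TPM against 501, 539 and 517 TPM (0.21, SE 0.04, adjusted p = 0.0236). Among the sensors, EIF2AK3, which encodes PERK, differed by 0.30 (95% CI 0.08 to 0.53, adjusted p = 0.125) and was called higher with the length and GC dependence taken out (0.34, adjusted p = 0.0419). Of the others, ATF6 differed by -0.03 (95% CI -0.36 to 0.30, adjusted p = 0.932) and ERN1, which encodes IRE1, by -0.01 (95% CI -0.25 to 0.22, adjusted p = 0.963), both with a sign that turned under other settings. XBP1, whose messenger RNA IRE1 splices, differed by 0.04 (95% CI -0.07 to 0.15, adjusted p = 0.708); the table counts genes and does not separate the spliced form.

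Among the effectors of the response, single genes were called, where 0.536% of all genes were called higher and 2.41% lower. Of 42 tested PERK-ATF4 targets, CHAC1, which degrades glutathione, was called higher at 38.5, 37.8 and 40.1 TPM against 25.5, 27.1 and 28.1 TPM (0.51, adjusted p = 0.00431), as was VLDLR (0.40), and STC2, a secreted glycoprotein, lower at 65.95, 73.4 and 77.04 TPM against 121, 118 and 117 TPM (-0.71, adjusted p = 0.00114); the list median was -0.05. The call of VLDLR was lost whichever library was left out. HSPA5, the ER chaperone BiP, measured 545, 541 and 532 TPM with stearate and 476, 481 and 467 TPM with oleate (0.18, SE 0.03, adjusted p = 0.0224), and HERPUD1, of ER-associated degradation, 102, 108 and 110.2 TPM against 91.1, 91.4 and 88.4 TPM (0.24, adjusted p = 0.0327). Both passed the adjusted p and were under the fold limit; HSPA5 passed it in 0 of 6 leave-one-out fits, and ATF4 in 1. Of 33 ER chaperones, DNAJB9 was called (0.60), of 31 genes of ER-associated degradation SELENOK (0.35), and of 37 genes of the COPII coat and ER exit SEC24D (0.44), each higher with stearate and each lost in at least 4 of 6 leave-one-out fits. H2AX, the histone marked at DNA breaks, differed by 0.16 (95% CI 0.02 to 0.30) and was not called; transcripts say nothing of its phosphorylation. Of 34 tested apoptosis genes 0 were called, and 1 lower with a minimum of 5 TPM or the length and GC dependence taken out, and 1 higher and 1 lower with all 18 samples in the fit. By the adjusted p alone 2 were lower, CFLAR at -0.27 and BCL2L1 at -0.22, as were 3.32% of all genes. Of 27 p53 targets only PLK2 was called, lower (-0.38), with 14 estimates above 0 and 13 below. By the adjusted p alone 2 were lower and 1 higher, as were 3.32% and 0.906% of all genes. Lists of DNA replication (45 tested), the respiratory chain (44), cytosolic ribosomal proteins (67) and cilium assembly (44) held 0 calls each, with medians of -0.02, 0.02, 0.02 and 0.05 and lowest adjusted p of 0.0571, 0.0502, 0.0711 and 0.101. KRT7 was the 1 gene called among 12 tested epithelial markers (-0.33), a call lost in 4 of 6 leave-one-out fits.

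The same fatty acids were also compared at the same dose and time without the inhibitor, in 3 stearate+DMSO and 3 oleate+DMSO samples that share none with the first comparison, so 2 pairs were compared in all. There, 93 genes were called higher with stearate (0.674%) and 333 lower (2.41%), and 29 to 47 and 80 to 193 with 1 library left out, the lowest without stearate+DMSO replicate 2 and oleate+DMSO replicate 3. Of the 407 genes called with CAY10566, 403 had a difference of the same sign with DMSO, as did 73.3% of all tested genes, and 220 were called in that direction, which is 54.1% of the 407 and 51.6% of the 426 called with DMSO; 0 were called in the opposite direction. Of the 333 lower genes, 189 were called again, and of the 74 higher genes 31. The median log2 difference of the 333 was -0.47 with CAY10566 and -0.44 with DMSO, and that of the 74 was 0.44 and 0.36. Over all 13798 genes, which are not independent replicates, the differences in both arms had a Pearson correlation of 0.388. F3 had log2 differences of -1.70 with CAY10566 and -1.70 with DMSO, IL24 of -1.88 and -1.87, SCD of 0.70 and 0.54, and EGR1 of 0.74 and 0.81. The YAP and TEAD list had 10 calls lower and the same median of -0.31 with DMSO, whereas the cholesterol list had 3 calls higher and a median of 0.14 against 0.22.

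Whether the difference between stearate and oleate itself changed with CAY10566 was tested as an interaction over the 12 samples. Of 13798 genes, 1 was called (0.00725%), and 490 had an unadjusted p under 0.05. For F3 the difference of the differences was -0.0025 (95% CI -0.17 to 0.17), for IL24 -0.01 (95% CI -0.42 to 0.41), for SCD 0.17 (95% CI -0.08 to 0.42) and for INSIG1 0.07 (95% CI -0.15 to 0.28). These intervals bound how far the inhibitor could have moved the difference, and a p above the threshold does not show that the fatty acids acted alike in both arms. The gene called was PAEPP1, a transcribed pseudogene of PAEP (chromosome 9, 135588002 to 135591975, plus strand), which passed the minimum of 1 TPM, set over the 6 samples with CAY10566, only through its stearate+CAY10566 values, so that the filter favoured such a difference. It measured 7.91, 8.16 and 7.78 TPM with stearate+CAY10566 and 0.83, 0.31 and 0.9 TPM with oleate+CAY10566, but 0.31, 0.48 and 0.76 TPM with stearate+DMSO and 0.53, 0.42 and 0.2 TPM with oleate+DMSO. Its level was also uneven in the cells without fatty acid, at 11.9, 8.09 and 0.32 TPM with DMSO and 0.21, 1.48 and 0.31 TPM with CAY10566. High values thus occurred in 2 DMSO samples and in all stearate+CAY10566 samples. The parent gene PAEP measured 1.6, 1.27 and 1.68 TPM with stearate+CAY10566, 2.44, 2.59 and 2.16 TPM with oleate+CAY10566 and 2.92, 2.47 and 3.56 TPM with DMSO; whether reads were divided between the pseudogene and its parent was not tested. With a pseudocount of 0.1, or without any 1 of stearate+DMSO replicates 1 and 2, oleate+DMSO replicates 1 and 2 and stearate+CAY10566 replicate 1, PAEPP1 was not called.

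**Figure D5:**
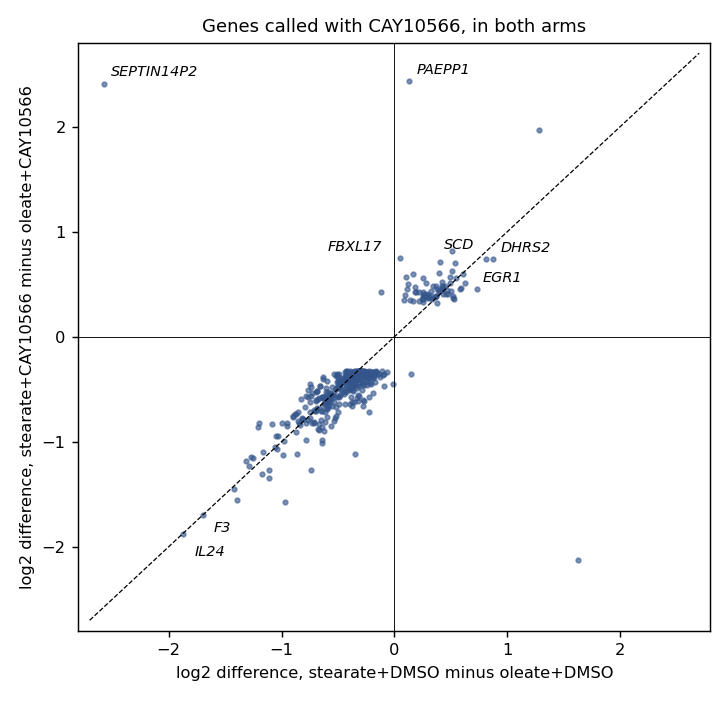
Log2 difference between stearate and oleate for the 407 genes called with CAY10566, in the samples with DMSO (x axis) and with CAY10566 (y axis), 1 point per gene, with the line of equal difference dashed. Most points lie near the line, 403 of 407 with the same sign in both arms, and PAEPP1 lies far above it.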

How the data were processed

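Poly(A) RNA of 18 OVCAR5 samples, 3 for each of 6 conditions, had been sequenced as stranded paired reads of 100 bases. Per the labels and the study's methods, the authors trimmed reads with Trim Galore, aligned them to GRCh38 with STAR 2.7.1a and estimated expression with RSEM. They deposited 1 table of TPM for 60483 gene identifiers, which holds no read counts, so no count model was used.

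Genes with a mean of at least 1 TPM over the 6 samples compared were kept, and log2(TPM + 1) was fitted with limma 3.58.1 in R 4.3.3 (lmFit, eBayes with trend). All adjusted p are Benjamini-Hochberg values of limma's moderated test, two-sided, over all genes in the fit. These were 13798 except in fits with another filter or with the length and GC dependence taken out. The fits were tested on simulated data. The interaction used 12 samples, and the comparisons with CAY10566 alone 9. Genes named are the 12 largest rises and falls among called genes of at least 5 TPM without overlap, SCD and the UPR and histone genes the study followed, any gene called in the interaction, and in each list the called members and the 2 with the smallest p; other list members were named for their role after their values were seen. Some genes that this rule names are not reported here. Members and lists were chosen with earlier results of these data known. Gene positions are from GENCODE release 44 and promoters from RefSeq (GRCh38.p14). Python 3.11.15 with matplotlib 3.10.9 made the plots. Alternatives were another pseudocount, filter, variance model or scaling, a replicate block, all 18 samples, removal of the length and GC dependence (13643 genes with a length) and each library left out.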

Additional observations from a re-analysis of the deposited data

Results flagged for a closer look

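For 1 gene the difference between stearate and oleate passed the threshold for a change with the inhibitor, in the test over 12 samples. PAEPP1, a pseudogene, had a log2 difference of 2.43 with CAY10566 and of 0.13 with DMSO, so that the difference of the differences was 2.30. It passed the TPM minimum only through the stearate+CAY10566 samples, where it is high, so the filter favoured this difference. The fit gave no call with a pseudocount of 0.1 or with the replicate number as a block.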

How the results depend on the processing

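Counts of called genes are given here as higher then lower. For stearate against oleate with CAY10566 they were 34 and 178 with no filter on TPM, 37 and 161 without a mean-variance trend, 106 and 240 after size factor rescaling (which shared 313 genes with the 407), 129 and 429 with all 18 samples in 1 fit and 128 and 266 with the length and GC dependence taken out, and with DMSO 40 and 115 without the filter and 148 and 309 after rescaling. A pseudocount of 0.1 gave 79 and 340, and a minimum of 5 TPM 84 and 364. The interaction gave 0 and 0 with the pseudocount of 0.1 or the minimum of 5 TPM, and 1 and 1 without the filter. Stearate against CAY10566 alone gave 28 and 80 without the filter. Oleate against CAY10566 alone gave 0 and 0 without the filter or the trend and 2 and 7 after rescaling. Leaving out 1 library gave 22 to 47 and 113 to 291 for stearate against oleate with CAY10566, 29 to 47 and 80 to 193 with DMSO, 0 to 3 and 0 to 2 for the interaction, 18 to 68 and 56 to 103 for stearate against CAY10566 alone, and 0 to 5 and 0 to 2 for oleate; a group left with 1 sample fewer also has fewer samples to test. In the 6 samples with a fatty acid and CAY10566, same-numbered samples did not deviate together (correlations of 0.04, -0.03 and -0.11). With 3 samples a group this cannot exclude a pairing by number, and the other samples were not checked for it. A fit with the replicate number as a block gave 32 and 160 with CAY10566 and 11 and 45 with DMSO. It gave 0 and 0 for the interaction, 30 and 87 for stearate against CAY10566 alone and 0 and 0 for oleate. Apart from the construction of a setting, the cause of these shifts was not tested. Over the 110 named genes, 1271 values kept direction and side of the threshold, 243 lost the call, 13 gained it and 10 turned in sign. Those 10 were of 2 genes near 0. ATF6 was 0.010 after rescaling, 0.033 with the length and GC dependence taken out and -0.20 to 0.087 with 1 library left out (0.027 without stearate+CAY10566 replicate 1, 0.0072 without oleate+CAY10566 replicate 1). ERN1 was 0.029, 0.090 and -0.11 to 0.055 (0.041 and 0.030 without oleate+CAY10566 replicates 1 and 2). Depth is unknown here, so a gene not called may differ by less than 3 samples a group can show.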
